A study of Mus musculus with 6 samples.

Results

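Erythroid progenitor genes are described here in 6 RNA-seq libraries from sorted mouse marrow cells. The list was set by symbol and holds 10 genes: the transcription regulators Tal1, Gata1, Zfpm1 and Gfi1b, the erythropoietin receptor gene Epor, the carbonic anhydrase genes Car1 and Car2, and the late genes Ermap, Hba-a1 and Hbb-bt. All 10 were found among the 21878 rows of the deposited tables. The mice were wild type (WT) and ate either a control diet (CD, 3 libraries) or a serine/glycine-free diet (SGFD, 3 libraries) for 3 months, and the comparison asks how the diet changes the transcriptome of the sorted cells. The labels used here give no age and do not say how many mice went into a library, so the spread behind each p-value is that between libraries and may be technical. The cells were gated as Lin-, c-Kit+, Sca1+, CD34- and CD135- and carry the label LT-HSC (long-term hematopoietic stem cell), the rare marrow cells that can rebuild all blood lineages. Values were read as FPKM (fragments relative to gene length and library depth). This unit was inferred from the values, and levels are compared between genes on that basis.

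Red blood cells arise when stem and progenitor cells turn on a small circuit of DNA-binding proteins. GATA1, its cofactor FOG1 (the product of Zfpm1), and TAL1, bound to LMO2 and LDB1, switch on erythroid genes, and GFI1B represses genes of other fates; the same proteins also serve megakaryocytes, which make platelets. Committed progenitors depend on erythropoietin, which acts through its receptor, JAK2 and STAT5, and they gain carbonic anhydrases early, while globins and red cell membrane proteins accumulate late. LT-HSCs express part of this circuit and are not erythroid cells.

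With SGFD every early gene of the list was lower, and the late genes split. Car1 was lowest relative to CD among the early genes, with a mean 4.08-fold lower, followed by Car2 and Epor at 2.15-fold each, and the 4 transcription regulators were 1.47- to 1.65-fold lower. Of the late genes, Hba-a1 was 6.93-fold and Ermap 5.18-fold lower, while Hbb-bt had the same mean with both diets. The folds of Hba-a1, Ermap and Epor rest on few fragments with SGFD. The filter (at least 1 FPKM in at least 3 libraries) admitted 7 of the 10 genes: the early genes except Epor, and Hbb-bt. Of these 7, 6 fell at a limma adjusted p under 0.05, against a background of 41.8% of the 10620 tested genes called lower and 17.7% called higher. The median log2 fold change of FPKM + 1 was -0.68 over the 6 early genes tested and -0.13 over all tested genes. In the fit without a filter, 9 of the 10 fell, against 29.6% of 15509 genes. All 3 SGFD values lay below all 3 CD values for 9 of the 10 genes, which held for 36.4% of the genes above 0 in any library. Among genes past the filter it held for 6 of the 7 members and for 45.5% of all, and the opposite held for none of the members and 19.6% of all. Under the filter it held for Epor, Ermap and Hba-a1, and for 16.7% of 4889 genes. The values of each library are shown in the plot by gene.

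**Figure D1:**
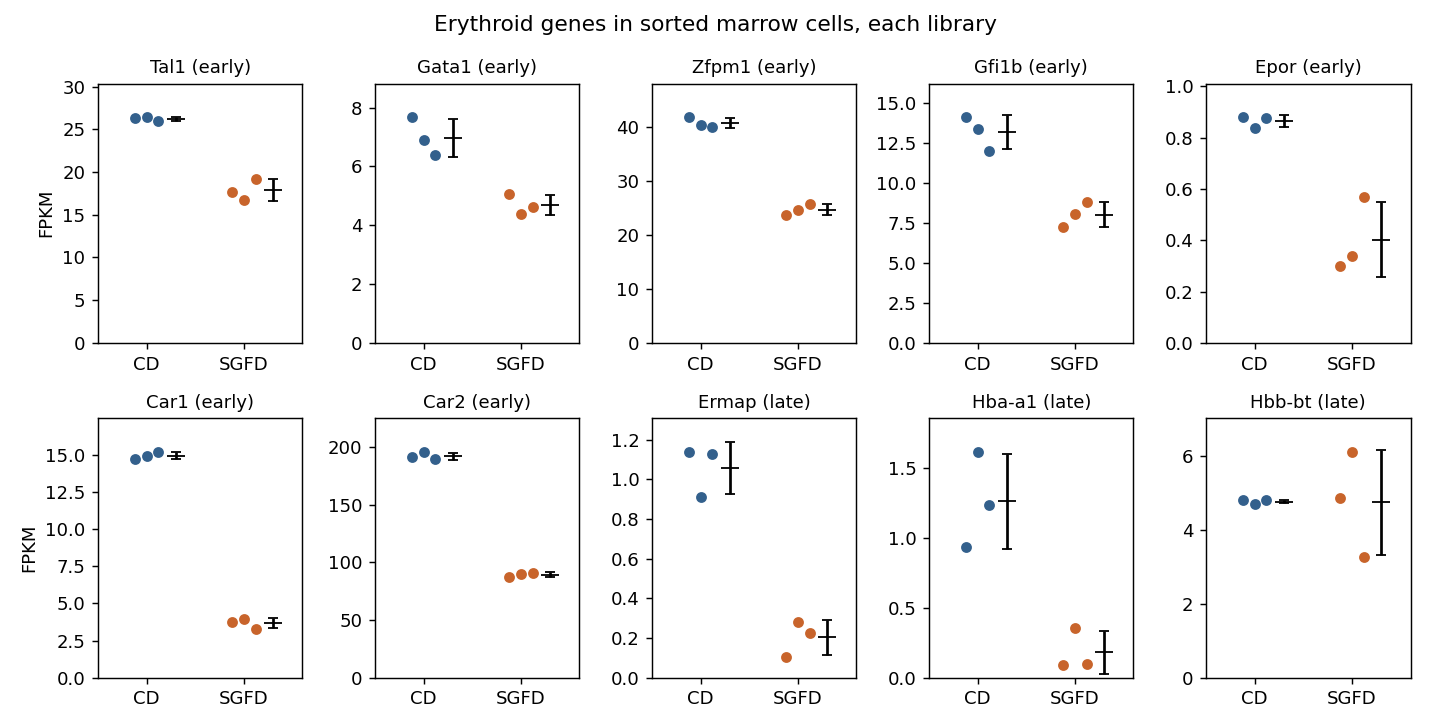
FPKM of the 10 genes in each library (points; y axes start at 0 and differ between panels) for CD and SGFD, with the mean and SD of 3 libraries beside the points. The SGFD points lie below all CD points for every gene except Hbb-bt, where they lie on both sides.

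The total number of fragments per library, worked out from the steps between low FPKM values and annotated lengths, was 18823809 to 19992100, and 13781 to 14106 genes per library were above 0. Libraries scaled by their median ratio shifted the typical gene from -0.13 to -0.01 on the log2 scale, and called genes then split into 2844 lower (26.8%) and 3054 higher (28.8%). After quantile normalization 24.0% were lower and 21.3% higher. The same 6 members were lower under both scalings. A list of 14 genes of LT-HSCs and of the sort gate had 13 tested, of which 11 fell and none rose, against the 41.8% and 17.7% of all genes. It includes Hlf, a stem cell factor, which fell from 56.2 ± 0.759 to 21.9 ± 0.779 FPKM. It also includes the genes of the surface proteins that the gate excludes: Cd34 had 471 ± 15.4 FPKM with CD and 429 ± 8.58 with SGFD, and Flt3 (CD135) 114 ± 1.19 and 90.5 ± 3.72 FPKM, so RNA of both was present in cells gated as negative for the proteins. Of 14 granulocyte and monocyte progenitor markers 12 rose and 1 fell, their summed level going from 1139 to 1169 FPKM in the CD libraries to 3827 to 4241 FPKM in the SGFD libraries. In sorted bulk cells a lower level can come from fewer cells that hold the RNA or from less RNA per cell, and these cannot be told apart.

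The regulators were lower in every SGFD library than in any CD library. Tal1, the basic helix-loop-helix factor of blood stem cells and erythroid cells, had 26.3, 26.4 and 26.0 FPKM in CD replicates 1 to 3 and 17.6, 16.7 and 19.2 FPKM in SGFD replicates 1 to 3. Its log2 fold change was -0.53 ± 0.06 (SE; limma, adjusted p = 5.45e-05). Gata1, the main erythroid and megakaryocytic GATA factor, had 7.66, 6.88 and 6.39 FPKM with CD and 5.07, 4.40 and 4.62 FPKM with SGFD. The Gata1 groups did not overlap, though they lay closer to each other than those of Tal1, and the log2 fold change was -0.48 ± 0.09 (SE; adjusted p = 0.000874). Quantile normalization made the Gata1 change smaller, at -0.24, and left it just past the threshold (adjusted p = 0.0440). Zfpm1, which encodes the GATA1 cofactor FOG1, had 41.9, 40.5 and 40.1 FPKM with CD and 23.7, 24.7 and 25.8 FPKM with SGFD. Its log2 fold change was -0.70 ± 0.05 (SE; adjusted p = 2.61e-06). Gfi1b, a zinc finger repressor needed for erythroid and platelet cells, had 14.1, 13.4 and 12.0 FPKM with CD and 7.22, 8.04 and 8.77 FPKM with SGFD. The 3 SGFD values of Gfi1b were all well under the lowest CD value, and its log2 fold change was -0.65 ± 0.08 (SE; adjusted p = 0.000129).

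The 4 regulators kept their order of level with both diets: Zfpm1 highest, then Tal1, Gfi1b and Gata1, with no overlap between neighbours in that order in either diet. Gata1 relative to Tal1 was 26.6% ± 2.29 with CD and 26.4% ± 2.36 with SGFD (SD, n = 3 each), and the libraries of the diets overlapped. Gata2, the GATA factor of stem cells that gives way to Gata1 as erythroid cells mature, fell from 47.7 ± 0.210 to 33.7 ± 1.21 FPKM (log2 fold change -0.49, adjusted p = 1.65e-05). Gata1 relative to Gata2 was 16.0%, 14.5% and 13.4% in the CD libraries and 15.5%, 12.6% and 13.9% in the SGFD libraries. The diets overlapped in this measure too, so a shift between these GATA factors was not detectable with 3 libraries per diet.

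**Figure D2:**
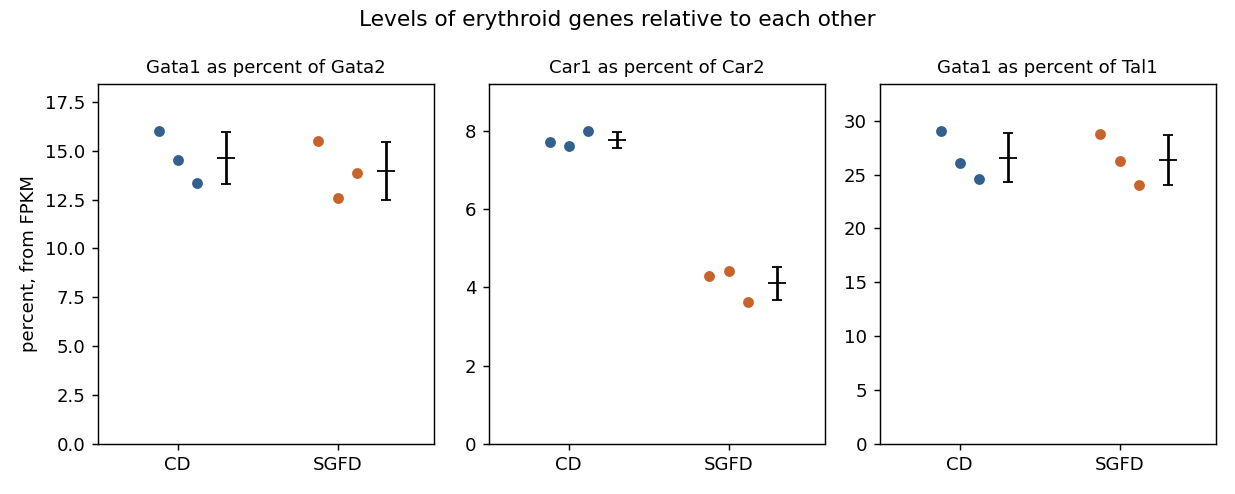
Level of one gene as a percent of another in each library (points, from FPKM; y axes start at 0), with the mean and SD of 3 libraries per diet. Gata1 relative to Gata2 and to Tal1 overlapped between diets, whereas Car1 relative to Car2 was 7.63% to 8.02% with CD and 3.62% to 4.41% with SGFD.

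Sequences upstream of these genes are shown because GATA1 binds short GATA motifs. RefSeq promoters of GRCm38.p6 were matched for 8 of the 10 genes; Car1 and Car2 have no entry. The GATA motif was searched on both strands as AGATAA, with AGATAG, with TGATAA and with TGATAG, in the 250 bases before the annotated start, and 26.5% of 32851 such promoters hold at least 1 match. A match was found for 5 of the 8 genes, Epor, Ermap, Gfi1b, Hba-a1 and one of the starts of Tal1, and none was found in these windows for Gata1, Zfpm1 and Hbb-bt. The CACCC motif, searched on both strands, is the core of sites bound by KLF1; it was found for 8 of the 8 genes and in 52.0% of all promoters. A match of letters describes the window and does not show a bound site. The stretches below are printed 5′ to 3′ on the strand of the gene, without annotated exon bases, with GATA matches on either strand in capitals. With the base before the annotated start as -1, the match begins at -54 in Epor, -67 in Ermap, -120 in Gfi1b and -183 in Hba-a1. Hbb-bt, the gene of the list that was not lower, is also shown and its window has no match. Gata1 and Zfpm1, which were lower, have none either. Hba-a2 and Hbb-bs, near copies of Hba-a1 and Hbb-bt, hold a match, and their values overlapped between diets. Whether the motifs bear on the changes was not tested.
Gfi1b, chr2:28621983-28622232, minus strand: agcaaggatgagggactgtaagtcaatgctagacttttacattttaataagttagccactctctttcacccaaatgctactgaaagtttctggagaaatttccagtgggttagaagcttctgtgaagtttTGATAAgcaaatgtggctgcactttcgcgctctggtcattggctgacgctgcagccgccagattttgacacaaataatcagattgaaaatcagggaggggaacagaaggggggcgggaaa
Epor, chr9:21963577-21963826, minus strand: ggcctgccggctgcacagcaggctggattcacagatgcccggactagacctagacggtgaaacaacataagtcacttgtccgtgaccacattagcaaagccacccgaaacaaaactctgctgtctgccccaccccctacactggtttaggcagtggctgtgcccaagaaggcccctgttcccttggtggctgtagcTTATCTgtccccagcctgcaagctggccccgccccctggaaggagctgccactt
Ermap, chr4:119190012-119190245, minus strand: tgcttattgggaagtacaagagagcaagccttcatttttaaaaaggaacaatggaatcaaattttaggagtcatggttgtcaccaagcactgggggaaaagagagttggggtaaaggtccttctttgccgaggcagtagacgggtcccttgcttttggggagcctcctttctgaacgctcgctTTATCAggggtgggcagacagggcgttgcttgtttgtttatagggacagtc
Hba-a1, chr11:32283422-32283510, plus strand: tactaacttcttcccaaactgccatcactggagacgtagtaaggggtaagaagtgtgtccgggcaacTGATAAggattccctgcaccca
Hbb-bt, chr7:103813997-103814173, minus strand: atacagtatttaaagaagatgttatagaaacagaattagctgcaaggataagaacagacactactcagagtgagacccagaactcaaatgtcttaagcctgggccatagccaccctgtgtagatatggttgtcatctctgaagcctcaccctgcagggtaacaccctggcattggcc

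Both carbonic anhydrase genes of the list fell, Car1 most. These enzymes interconvert carbon dioxide and bicarbonate, and Car1 is an early gene of committed erythroid progenitors. In GRCm38 Car1 lies on chromosome 3 from 14766214 to 14808365 and Car2 on chromosome 3 from 14886269 to 14900770. Car1 had 14.8, 14.9 and 15.2 FPKM in the CD libraries and 3.74, 3.97 and 3.29 FPKM in the SGFD libraries. The replicates of each diet lay close together and the groups were far apart, with a log2 fold change of -1.78 ± 0.08 (SE; limma, adjusted p = 6.97e-08). Of the 10620 tested genes, 1 had a larger fall than Car1 in log2(FPKM + 1), a scale that compresses low values. By the ratio of means some tested genes of lower level fell further than Car1 (4.08-fold), among them Hmox1 at 5.12-fold and C1qb at 9.49-fold. Car2 had 191, 196 and 190 FPKM with CD and 87.2, 90.0 and 91.0 FPKM with SGFD. Its log2 fold change was -1.10 ± 0.04 (SE, limma adjusted p = 1.39e-08), and 40 tested genes had a larger fall on the same log2 scale. Car2 was the most abundant gene of the list with both diets, and 97.6% of tested genes had a lower CD mean.

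Car1 relative to Car2 was 7.79% ± 0.204 with CD and 4.11% ± 0.426 with SGFD (SD, n = 3 each), without overlap. The other 14 carbonic anhydrase genes were low or absent: 4 were listed at 0 in all 6 libraries and 4 passed the filter. Car13 fell from 4.18 ± 0.0806 to 3.20 ± 0.178 FPKM with an adjusted p of 0.00780 in limma, and did not pass after median-ratio scaling (0.0583) or quantile normalization (0.718). Car12 rose from 1.34 ± 0.212 to 1.81 ± 0.0652 FPKM (adjusted p = 0.0375), which did not pass with the replicate number as a block (0.0579), or when CD replicate 1 (0.158) or CD replicate 2 (0.104) was left out. Leaving out SGFD replicate 1 (0.0800) or SGFD replicate 3 (0.0847) had the same effect on Car12. Car3 and Car9 did not pass, with log2 fold changes of -0.07 and -0.02.

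In GRCm38.p6 the other genes of the list lie on chromosome 4 (Tal1, 115056426 to 115071755, and Ermap, 119175457 to 119190013), X (Gata1, 7959260 to 7976663), 8 (Zfpm1, 122281856 to 122337862) and 2 (Gfi1b, 28609450 to 28621982). Epor lies on chromosome 9 from 21958897 to 21963576, Hba-a1 on 11 from 32283672 to 32284486 and Hbb-bt on 7 from 103812524 to 103813923. In these libraries shorter transcripts tended to be higher with SGFD, and the carbonic anhydrase genes are short. With tested genes in 10 bins of their longest annotated transcript, the bin of Car1 (1194 bases) had a median log2 fold change of 0.13 and 13.6% of its 1030 genes were called lower. The bin that holds Car2, Gata1 and Gfi1b had a median of 0.03, with 20.2% of its genes called lower. Zfpm1 (3390 bases) and Tal1 (4213 bases) lie in bins with medians of -0.13 and -0.17, of which 41.5% and 48.4% of genes were called lower. In its own bin Car1 fell further in log2(FPKM + 1) than all but 0.0971% of genes, Gfi1b than all but 2.63% and Tal1 than all but 10.8%. That scale compresses the falls of low genes.

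Epor, which encodes the receptor for erythropoietin, was low in every library and lower with SGFD. It had 0.878, 0.836 and 0.875 FPKM with CD and 0.298, 0.340 and 0.568 FPKM with SGFD, so all 6 values were under the filter. Whole fragments recovered from these values were 47, 44 and 46 with CD and 16, 19 and 30 with SGFD, where SGFD replicate 3 stood closest to CD. In the fit without a filter its log2 fold change was -0.41 ± 0.08 (SE; limma, adjusted p = 0.00686) on a scale that compresses such low values, and -1.10 as the log2 ratio of the means. Of 13 tested genes of the list for erythropoietin signalling, 6 fell, 2 rose and 5 did not pass, with a median log2 fold change of -0.19. These shares are near the 41.8% lower and 17.7% higher of all tested genes and are no result about the pathway. Stat5b, a transcription factor activated by the receptor, fell from 26.7 ± 0.477 to 20.8 ± 0.752 FPKM. Sh2b3, an adaptor that restrains JAK2, fell from 13.9 ± 0.0984 to 10.2 ± 0.340 FPKM. Kit, the stem cell factor receptor shared by stem and erythroid progenitor cells, fell from 122 ± 0.843 to 71.4 ± 2.06 FPKM (log2 fold change -0.76). Jak2, named here after its value was seen, fell from 10.5 ± 0.111 to 7.08 ± 0.722 FPKM. Socs3, a feedback inhibitor induced by many cytokines, rose from 30.6 ± 0.909 to 83.4 ± 8.07 FPKM. Cish and Socs2, feedback inhibitors induced by STAT5, had 5.79 ± 0.375 and 0.461 ± 0.0442 FPKM with CD and 5.14 ± 0.440 and 0.205 ± 0.0496 FPKM with SGFD. Cish did not pass. Socs2 was under the filter, with 116, 97 and 97 fragments with CD and 57, 50 and 34 with SGFD. In the fit without a filter Socs2 was called lower (limma, adjusted p = 0.00415), as were 29.6% of all genes.

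The late genes were low, and of the list Hba-a1 rested on the fewest fragments. Ermap, which encodes a membrane protein of erythroid cells, had 1.14, 0.908 and 1.13 FPKM with CD and 0.106, 0.279 and 0.226 FPKM with SGFD. These came from 117, 92 and 114 fragments with CD and 11, 30 and 23 with SGFD, and the groups were far apart. Hba-a1, one of the adult alpha globin genes, had 0.934, 1.61 and 1.24 FPKM with CD and 0.0931, 0.358 and 0.0946 FPKM with SGFD. That is 10, 17 and 13 fragments with CD and 1, 4 and 1 with SGFD, so the fold of 6.93 is imprecise: it was 13.4 without SGFD replicate 2. Without a filter both were called lower, Ermap at a log2 fold change of -0.77 ± 0.08 (SE; limma, adjusted p = 0.000621) and Hba-a1 at -0.93 ± 0.13 (SE; adjusted p = 0.00205). Hbb-bt, an adult beta globin gene, had 4.81, 4.72 and 4.81 FPKM with CD and 4.87, 6.11 and 3.27 FPKM with SGFD. Its SGFD values lay on both sides of the CD values and spread more widely, and it did not pass (log2 fold change -0.04 ± 0.15, adjusted p = 0.846). The sign of the Hbb-bt change depended on the setting: it was 0.077 after median-ratio scaling, 0.22 after quantile normalization and 0.16 without SGFD replicate 3, none past the threshold.

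Globin genes have near-identical copies, and the counting could split their fragments. In the GENCODE transcripts 67.5% of 50-base windows of Hba-a1 also occur in Hba-a2, and 58.3% of those of Hbb-bt in Hbb-bs. Hba-a2 had 1, 3 and 3 fragments with CD and 7, 0 and 1 with SGFD, so SGFD replicate 1 had most of its alpha globin fragments on the copy outside the list. Summed over both copies, adult alpha globin came to 11, 20 and 16 fragments with CD and 8, 4 and 2 with SGFD, or 1.48 ± 0.436 and 0.429 ± 0.282 FPKM (SD, n = 3 each), still without overlap. Hbb-bs had 5, 9 and 25 fragments with CD and 4, 8 and 7 with SGFD, and adult beta globin summed to 5.85 ± 0.901 and 5.26 ± 1.44 FPKM, with overlap. The embryonic globins Hba-x, Hbb-y and Hbb-bh1 were listed at 0 in all 6 libraries. No molecular identifiers are given for these fragments, so they are not counts of independent molecules.

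**Figure D3:**
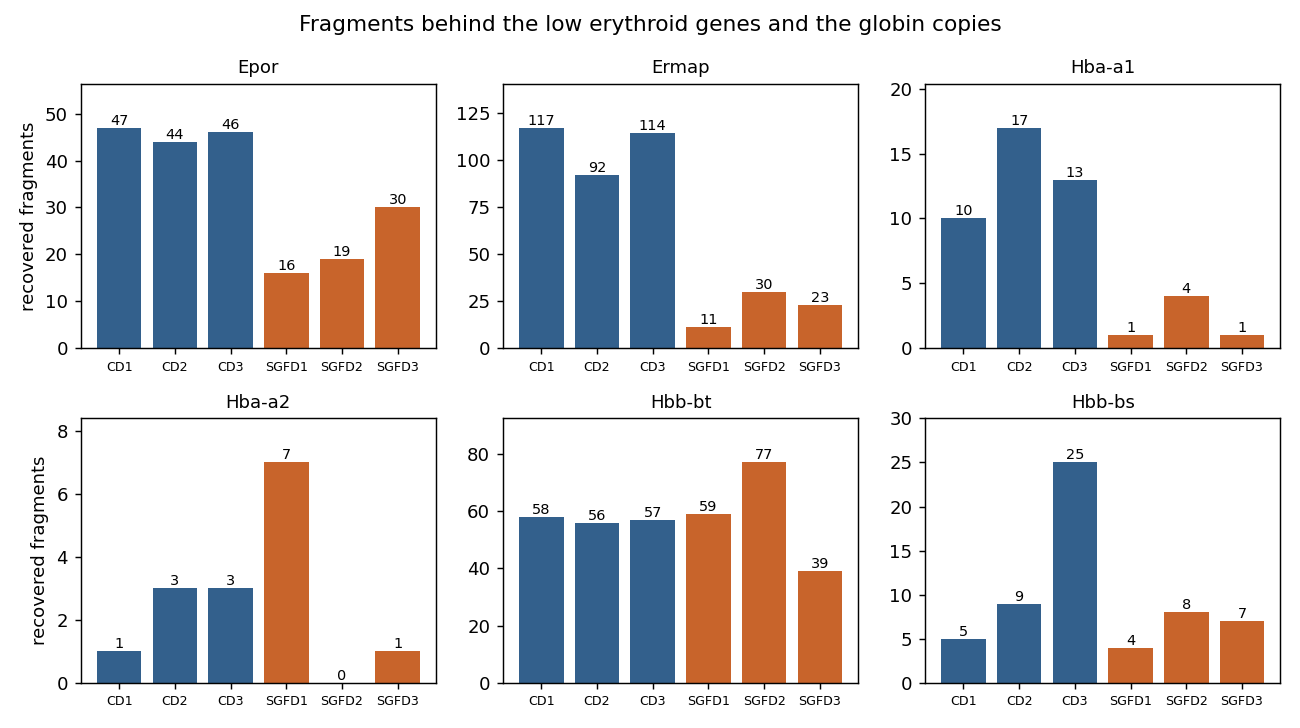
Whole fragments recovered from the FPKM values in each library (bars from 0, with the number on top; CD1 to CD3 and SGFD1 to SGFD3 are the replicates of each diet; y axes differ). Epor, Ermap and Hba-a1 have fewer fragments in every SGFD library than in any CD library, whereas Hba-a2, Hbb-bt and Hbb-bs overlap.

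With CD the order by mean FPKM was Car2, Zfpm1, Tal1, Car1, Gfi1b, Gata1, Hbb-bt, Hba-a1, Ermap and Epor, and of neighbours in this order the values of Hba-a1 and Ermap overlapped. With SGFD Car1 moved from rank 4 to rank 7 by mean, under Gfi1b, Hbb-bt and Gata1. Its values (3.29 to 3.97 FPKM) overlapped those of Hbb-bt (3.27 to 6.11 FPKM). The values of Hbb-bt and Gata1 overlapped too, as did those of Ermap and Hba-a1. The ratio of the CD mean to the SGFD mean ran from 1.47 to 4.08 over the 7 early genes with a median of 1.65. It ran from 1.005 to 6.93 over the 3 late genes with a median of 5.18. Low genes in general had larger ratios. Genes with a CD mean of 0.5 to 2 FPKM, such as Ermap and Hba-a1, had a median of 1.38. Of these 1377 genes, 264 were past 2-fold lower and 22 past 5-fold. At 10 to 20 FPKM the median was 1.12, and 24 of 2413 genes were past 2-fold lower. No test was made between the stages, since the genes were chosen for the list and 2 of the 3 late genes were under the filter.

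Partner factors of GATA1 and TAL1 outside the list fell in most cases. Of 18 tested, 14 fell, none rose and 4 did not pass, against 41.8% lower and 17.7% higher of all tested genes. The median log2 fold change was -0.33, against -0.13 over all tested genes, and 1 of the 18 (Sox6) passed the filter through CD alone. Cbfa2t3, the corepressor ETO2 of TAL1 complexes, fell most in log2(FPKM + 1), from 23.3 ± 0.654 to 12.3 ± 0.461 FPKM (log2 fold change -0.87, limma, adjusted p = 1.46e-06). By the ratio of means Klf1 fell further, 2.17-fold against 1.90-fold for Cbfa2t3. The bridging factor gene Lmo2 fell from 308 ± 6.73 to 232 ± 1.75 FPKM and Nfe2, a factor of erythroid and platelet cells, from 91.8 ± 1.24 to 63.9 ± 3.39 FPKM. Klf1, the Krüppel-like factor that activates beta globin, was low and fell from 2.50 ± 0.605 to 1.15 ± 0.361 FPKM, from 55, 89 and 74 fragments with CD and 22, 44 and 37 with SGFD (adjusted p = 0.00283). The 4 that did not pass were Lyl1, Tcf3, Gfi1 and Kdm1a; Lyl1, a close relative of Tal1, had a log2 fold change of -0.11, and Tcf3, an E-protein partner of TAL1, 0.03. After median-ratio scaling 11 of the 18 were lower and Tcf3 was higher (adjusted p = 0.0135), and after quantile normalization 12 were lower, Lyl1 among them (adjusted p = 0.00165).

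**Figure D4:**
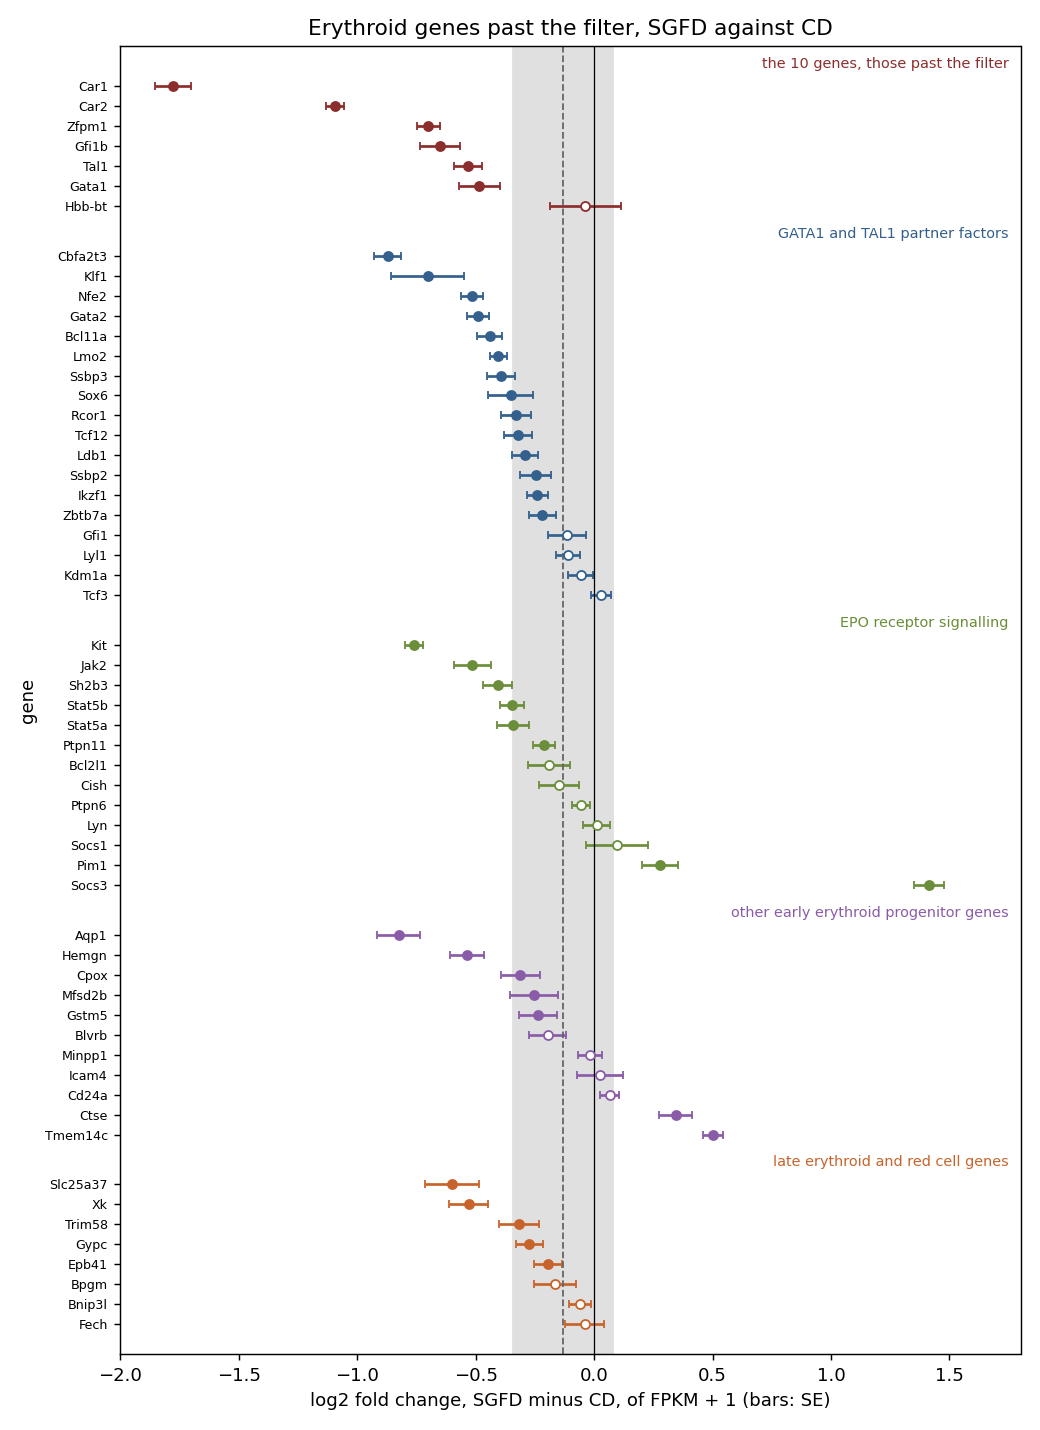
Log2 fold change of FPKM + 1 (SGFD minus CD, with SE, 3 libraries per diet) of genes past the filter from the list and from related lists. Filled points passed an adjusted p of 0.05 in limma, the dashed line is the median of all tested genes (-0.13) and the grey band their middle range from -0.34 to 0.08; Car1 and Car2 lie furthest left.

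Of 11 tested other genes of early erythroid progenitors, 5 fell, 2 rose and 4 did not pass, with a median log2 fold change of -0.20. These shares are near the 41.8% lower and 17.7% higher of all tested genes. Aqp1, a water channel of red cells and their progenitors, fell from 9.57 ± 0.773 to 4.97 ± 0.539 FPKM, and Hemgn, a nuclear protein of blood progenitors, from 16.3 ± 1.31 to 10.9 ± 0.623 FPKM. Tmem14c, a mitochondrial membrane protein that serves heme synthesis, rose from 59.9 ± 1.80 to 85.2 ± 2.17 FPKM, and Ctse, cathepsin E, from 8.83 ± 0.483 to 11.5 ± 0.594 FPKM. Aqp1 and Hemgn passed under each scaling, whereas the falls of Cpox, Gstm5 and Mfsd2b did not pass after median-ratio scaling or quantile normalization. The genes of this list under the filter differed among themselves. Atp1b2 had 1.19 ± 0.238 FPKM with CD and 0.230 ± 0.148 with SGFD, without overlap. Cldn13, Sphk1, Add2 and Smim1 were also lower without overlap, which held for 16.7% of the 4889 genes under the filter. Cldn13 was barely separated, with 14, 2 and 13 fragments with CD and 0, 1 and 1 with SGFD. Rhd had 0.453 ± 0.150 and 0.265 ± 0.224 FPKM and Tspo2 0.415 ± 0.239 and 0.256 ± 0.0615 FPKM, both with overlap. Without a filter 8 of 18 fell and 2 rose, against the 29.6% and 12.0% of all genes.

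Genes of maturing red cells were near the limit of detection. Of the 26 found in the tables, 3 were at 0 in every library, 8 passed the filter and 5 of these fell, with none higher, against 41.8% and 17.7% of all tested genes, and a median log2 fold change of -0.23. Slc25a37, the mitochondrial iron importer mitoferrin, fell from 21.7 ± 2.33 to 14.1 ± 2.44 FPKM and Xk, a membrane transporter that carries a blood group, from 4.30 ± 0.310 to 2.67 ± 0.0786 FPKM. Gypc (glycophorin C) fell from 19.3 ± 0.319 to 15.8 ± 0.746 FPKM, a call lost after median-ratio scaling (adjusted p = 0.0646), and Trim58, an erythroid ubiquitin ligase, from 3.84 ± 0.315 to 2.88 ± 0.0502 FPKM, which did not pass there either (0.0514) or after quantile normalization (0.620). Defining genes of red cells had few fragments. Slc4a1, the anion exchanger band 3, had 3, 6 and 10 with CD and Alas2, the erythroid enzyme that starts heme synthesis from glycine, 3, 3 and 1; both were listed at 0 in all SGFD libraries. Without a filter 15 of 23 genes were called lower and none higher, against 29.6% and 12.0% of all genes.

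Markers of other cell types are given beside these genes. Of 13 tested megakaryocyte markers 7 fell and 2 rose, against 41.8% lower and 17.7% higher of all tested genes, the summed level of the 19 markers going from 182 to 185 FPKM in the CD libraries to 139 to 145 FPKM in the SGFD libraries. Pf4, platelet factor 4, fell from 10.1 ± 2.14 to 4.88 ± 1.24 FPKM. Itga2b, an integrin of megakaryocytes and their progenitors, rose from 36.1 ± 1.60 to 42.5 ± 1.48 FPKM and Selp from 9.61 ± 0.498 to 20.5 ± 0.414 FPKM. Of 14 macrophage markers 7 were tested and called lower, but 6 of these passed the filter through CD alone, which favours a fall. Without a filter 11 of the 14 were called lower, against 29.6% of all genes. The sum over 14 markers went from 18.8 to 19.9 FPKM down to 3.94 to 4.27 FPKM. Hmox1, which breaks down heme, fell from 5.69 ± 0.237 to 1.11 ± 0.136 FPKM and C1qb from 2.30 ± 0.328 to 0.243 ± 0.0834 FPKM. Adgre1, which encodes F4/80, had 0.401 ± 0.114 FPKM with CD and 0.521 ± 0.156 with SGFD, with overlap, and Marco had 1 fragment in all 6 libraries. Macrophages surround and feed maturing erythroid cells in marrow. The part of these cell types in the lower levels of the erythroid genes was not tested. Of the B cell markers, 4 of 5 tested fell and none rose, but 3 of the 5 passed the filter through CD alone. Without a filter 8 of 10 were called lower, against 29.6% of all genes, with sums of 31.2 to 40.1 FPKM with CD and 26.3 to 27.5 FPKM with SGFD. These sums rest mostly on Cd79b, which had 532, 610 and 474 fragments with CD and 562, 600 and 555 with SGFD, and they hide larger falls. Pax5 had 39, 45 and 44 fragments with CD and 1, 0 and 2 with SGFD, and Ebf1 53, 47 and 41 with CD and 1, 0 and 5 with SGFD.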

How the data were processed

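Tools named in the submitters' processing notes are StringTie, HISAT2 and fastp, with no versions, and the builds are mm10 and GRCm38; RNA and stranded mRNA libraries were made from sorted cells, per the labels' protocols. The authors deposited 1 table per library of FPKM per gene symbol, made from aligned reads with these tools, per the submitters' processing notes. No source gives the unit by name; FPKM was read from the values, which step in whole fragments (100% of 1000 low genes searched, within 0.02 fragments, against 4.8% with perturbed values). The fragment totals rest on 176 of 413 single-transcript low genes that share a common total. Testing covered genes that reached 1 FPKM in 3 or more libraries, as log2(FPKM + 1) with limma 3.58.1 (R 4.3.3, trend and robust), two-sided, with Benjamini-Hochberg adjustment over all genes tested; low genes changed more than this scale shows. Other folds are ratios of mean FPKM. Count tests were not run, since the values are not counts. The script was tested on simulated data. The genes and lists were chosen with earlier results of these data known. The text names the 10 genes, up to 4 genes of smallest adjusted p from the lists described, near copies and genes that define a list; other names were added after their values were seen. Libraries were not paired: same-numbered CD and SGFD libraries did not deviate together. Length bins covered the 96.9% of tested genes with a GENCODE length. Some genes of the lists are not reported here.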

Additional observations from a re-analysis of the deposited data

How the results depend on the processing

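The count of 6 of the 10 genes lower and none higher was the same without any 1 library, with pseudocounts of 0.1 and 0.01, a filter of 5 FPKM, both scalings, array quality weights, no variance trend and the replicate number as a block; without a filter, also at a pseudocount of 0.1, it was 9. Over these settings the log2 fold change of Car1 ran from -2.03 to -1.57 and that of Gata1 from -0.57 to -0.24. At the filter of 5 FPKM Car1 passed through CD alone (14.8 to 15.2 FPKM, against 3.29 to 3.97 with SGFD), which favours a fall. Hbb-bt was not tested at that filter, and Epor, Ermap and Hba-a1 were tested only without a filter. Hbb-bt changed sign, never past the threshold, at 0.077 (median-ratio scaling), 0.22 (quantile normalization) and 0.16 (without SGFD replicate 3), and ran from -0.21 to 0.16 without any 1 library. Counts over all genes moved to 3054 higher and 2844 lower after median-ratio scaling and to 2552 lower after quantile normalization. GATA1 and TAL1 partner factors had 1 higher after median-ratio scaling. Other early erythroid genes lower were 8 without a filter, 9 without a filter at a pseudocount of 0.1 (chosen after seeing the data), 2 after median-ratio scaling, 3 after quantile normalization and 3 to 4 without any 1 library, 3 being the count without CD replicate 1. Late erythroid genes lower were 15 without a filter, 14 with that pseudocount as well, 3 at a filter of 5 FPKM, 2 after median-ratio scaling and 3 after quantile normalization. Fewer or more genes were tested under the other filters; the cause of the other changes was not tested. Same-numbered libraries had correlations of deviations of -0.01, -0.23 and -0.13, and 0 of 6 libraries lay closest to its own number. With the replicate block 1706 genes were higher and 4087 lower, and 6 of the 10 genes fell. Epor, Ermap and Hba-a1 rest on 1 to 117 fragments per library, which limits the precision of their folds.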
